A study of Trachemys scripta with 4 samples.

Results

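A set of 10 genes of cartilage and bone formation was followed in limb nerves of embryos of the turtle *Trachemys scripta*: the transcription factors SOX9, SOX5, SOX6, RUNX2 and SP7, the cartilage matrix genes ACAN, HAPLN1 and MATN1, and the bone genes IBSP and ALPL. The genes were chosen by name, with the collagens left out. Values for 8 of the 10 were analysed, among 15289 genes in all, and MATN1 and SP7 were not analysed here. All 8 passed the filter of at least 1 TPM (a level per gene length, scaled to the same total in each column) in at least 2 columns, as did 15100 genes in all. IBSP passed only through its values at stage 21 (st.21), so it could only enter the comparison as a gene that was higher there.

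Polyadenylated RNA came from dissected pieces of the brachial and sacral plexus of embryos at stage 19 (st.19) and st.21, from eggs that were incubated at 28 °C after oviposition was induced in adult females. No treatment or genotype separated the stages, and the sex of the embryos is not given. The data hold 2 columns per stage, replicate 1 and replicate 2, and the study counts 1 sample per stage. The study also names RNA from tissue around these small nerves as a possible part of the samples.

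Cartilage forms when mesenchymal cells condense and SOX9 switches on the chondrocyte programme, with SOX5 and SOX6 as partners that bind beside it on matrix genes. Chondrocytes then secrete aggrecan, which the link protein HAPLN1 ties to hyaluronan, and matrilins that bridge the matrix fibrils. Bone cells depend on RUNX2 and, downstream of it, SP7, and they lay down a matrix that holds bone sialoprotein (IBSP) and mineralises with the help of alkaline phosphatase (ALPL). The genes are not private to the skeleton: SOX9 also acts in the neural crest and in glia, SOX5 and SOX6 in neurons, and SOX6 in skeletal muscle of the mouse.

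Reads on genes numbered 4353821 and 4241655 at st.19 and 2229177 and 2129599 at st.21. With the rRNA gene LOC117869916 left out of the reads, columns of the same stage differed by less than sampling noise. The mean chi-square was 0.433 (st.19) and 0.323 (st.21) over genes of 5 to 500 reads, where independent sampling gives about 1. Each stage is thus 1 sample, and differences between the stages carry no p-value. The columns of a stage may hold reads of the same fragments, so a result that both pairs of columns show is not seen in separate samples. The rRNA gene LOC117869916 took 18.9% and 44.2% of the TPM at st.19 and 0.145% and 0.317% at st.21, and the median gene was 0.53 lower on the log2 scale in the second st.19 column than in the first. Taken as the mean of the st.21 columns minus the mean of the st.19 columns, the log2 fold change of the median gene was 0.06. It was −0.52 when that rRNA gene was left out of the TPM total and −0.47 with protein-coding genes only in the total. Changes are therefore given on the deposited scale and also relative to the median gene. Schwann cell markers were present in all columns, 7 of 7, with summed levels of 2050 and 1380 TPM at st.19 and 4310 and 4240 TPM at st.21.

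Of the 8 members, 7 had a log2 fold change within 1 in either direction, as did 73.1% of all genes. A log2 fold change above 1 was found for 1 of the 8 members, IBSP, where 17.3% of all genes passed that mark. The filter let IBSP in only as a gene that was higher at st.21, so its direction was not open. A log2 fold change below −1 was found for 0 of the 8, where 9.68% of all genes passed it. The median of the 8 members was 0.28, against 0.06 for all genes. It stays at 0.28 when IBSP is set against 3 reads, since IBSP is the highest member either way. On the deposited scale 5 members were higher and 3 lower at st.21.

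**Figure D1:**
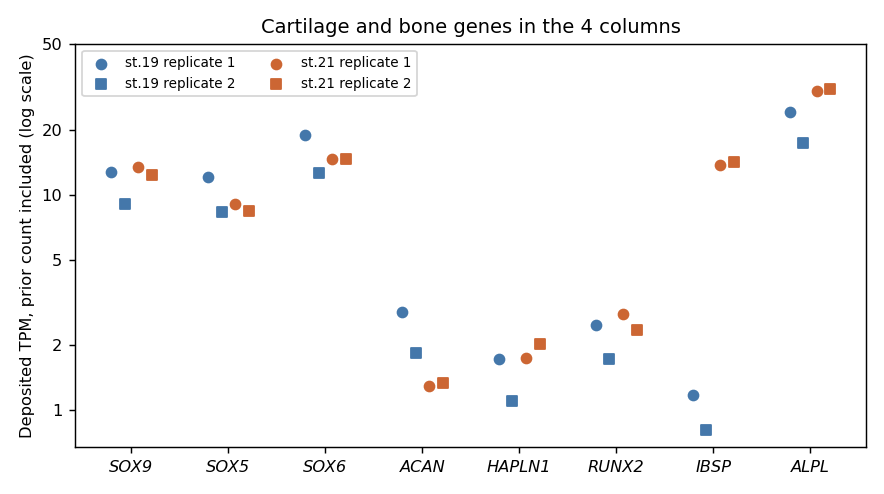
Level of each of the 8 members in the 4 columns, as deposited TPM on a log axis (blue, st.19; orange, st.21; circles, replicate 1; squares, replicate 2). IBSP, from 1.17 and 0.81 TPM to 13.7 and 14.2 TPM, is the member whose stages lie far apart, and its st.19 points hold no reads, only the prior count that the authors added.

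SOX9, the regulator that chondrocytes cannot form without, is on chromosome 14 from 30920479 to 30938493 (CAS_Tse_1.0). At st.19 it stood at 12.8 and 9.04 TPM (130 and 126 reads), and at st.21 at 13.4 and 12.3 TPM (66 and 58 reads). The second st.19 column was low, as for nearly all genes, and the first st.19 column lay between the st.21 columns, so the stages overlapped. The log2 fold change was 0.26. Set against the median gene of the replicate 1 columns, SOX9 moved by 0.28 (95% interval −0.17 to 0.71, which includes 0).

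SOX5 (chromosome 1, 115688699 to 116110222) stood at 12.1 and 8.33 TPM at st.19 (189 and 179 reads) and at 9.04 and 8.44 TPM at st.21 (68 and 61 reads). Both st.21 values lay between the st.19 values. Its log2 fold change was −0.20, and −0.22 relative to the median gene between the replicate 1 columns, with an interval from −0.64 to 0.19.

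SOX6, on chromosome 4 from 99881826 to 100336998, had the most reads of the 8, with 410 and 376 at st.19 and 154 and 148 at st.21. Its level was 18.9 and 12.6 TPM and then 14.7 TPM in both columns, again with the st.21 values between those of st.19. The log2 fold change was −0.07, and the interval relative to the median gene was the narrowest of the members, from −0.44 to 0.11 around −0.16. Skeletal muscle markers moved far over the same samples, from a summed 69.9 and 45.7 TPM to 2210 and 2180 TPM over the 5 of 8 analysed. All 5 had a log2 fold change above 1, against 17.3% of all genes. The part of muscle RNA in the level of SOX6 was not tested. In bulk samples, fewer cells of a type and less RNA per cell cannot be told apart.

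In the annotation the spans of SOX9, SOX5 and SOX6 each overlap an uncharacterised gene, LOC117887329, LOC117871457 and LOC117877231. The library kit keeps the strand, but whether the counting used it is not given in the sources used here, so reads in an overlap could belong to either gene.

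The reads of these 3 factors can be set against each other within a column, where the scaling between columns plays no part. A share of reads follows gene length, and SOX6 (11537 nt) is longer than SOX5 (8370 nt) and SOX9 (5467 nt). Per length, SOX6 made up 43.4% of the 3 in the first st.19 column and 39.8% in the first st.21 column, SOX9 29.0% and 36.0%, and SOX5 27.6% and 24.2%. By reads, SOX6 held 56.2% of their reads in the first st.19 column (exact Clopper-Pearson 95% interval 52.6% to 59.9%) and 53.5% in the first st.21 column (47.5% to 59.3%). SOX9 held 17.8% (15.1% to 20.8%) and then 22.9% (18.2% to 28.2%). SOX5 held 25.9% (22.8% to 29.3%) and then 23.6% (18.8% to 28.9%). The intervals of the stages overlapped for each of the 3 genes, and the replicate 2 columns gave 55.2% and 55.4% for SOX6. These families of genes were picked for comparison after their values had been seen, and the intervals cover counting error only.

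SOX9 was the minor member of its own family in the nerve. SOX8, SOX9 and SOX10 are closely related factors, and SOX10 marks and maintains Schwann cells. SOX10 stood at 217 and 146 TPM at st.19 and 329 and 333 TPM at st.21, and SOX8 at 134 and 85.0 TPM and then 201 and 200 TPM. Per length, SOX9 made up 3.46% of the 3 genes in the first st.19 column and 2.43% in the first st.21 column. It took 5.54% of their reads in the first st.19 column (4.65% to 6.54%) and 3.92% in the first st.21 column (3.04% to 4.96%). In the replicate 2 columns its share was 5.89% (4.93% to 6.98%) and 3.57% (2.72% to 4.59%). The intervals of the stages overlapped between the replicate 1 columns and were apart between the replicate 2 columns. SOX10 held 60.4% and 61.6% of the reads at st.19 and 61.8% and 62.4% at st.21.

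**Figure D2:**
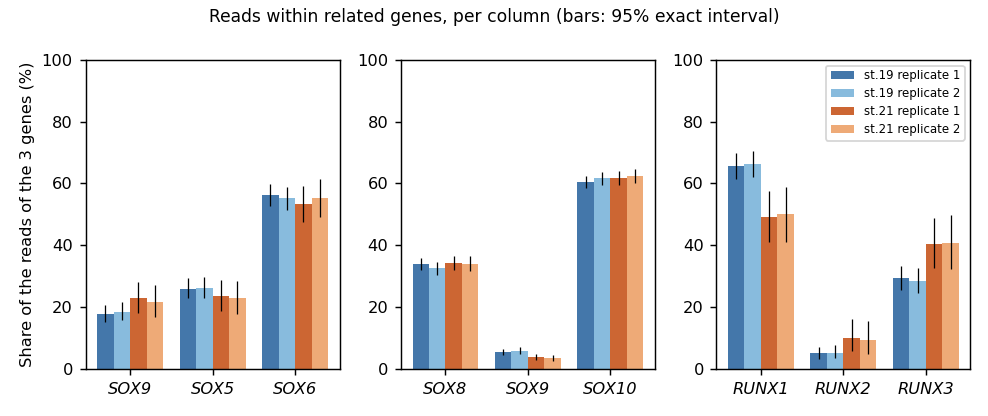
Share of the reads, in percent and not corrected for gene length, that each of 3 related genes took within a column, for SOX9, SOX5 and SOX6, for SOX8, SOX9 and SOX10, and for RUNX1, RUNX2 and RUNX3 (blue, st.19 columns; orange, st.21 columns; bars, exact 95% interval for counting error). SOX6, the longest gene of its group, takes 53.5% to 56.2% of the reads of the first group, SOX9 between 3.57% and 5.89% of the second, and RUNX1 falls from 65.7% to 49.3% of the third in the replicate 1 columns.

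The cartilage matrix members were close to the lower end of what the depth can show. ACAN encodes aggrecan, the large chondroitin sulfate proteoglycan that gives cartilage its resistance to compression, and lies on chromosome 10 from 71068210 to 71147359. It had 2.86 and 1.85 TPM at st.19, from 35 and 31 reads, and 1.29 and 1.33 TPM at st.21, from 7 reads in each column. Both st.21 values were below both st.19 values. The log2 fold change of −0.81 was the lowest of the members. Relative to the median gene it was −1.07 between the replicate 1 columns (interval −2.48 to 0.12) and −0.91 between the replicate 2 columns (−2.34 to 0.30). Not set against the median gene, its log2 fold change was −1.38 without the rRNA gene in the total and −1.13 without the second st.19 column, both past −1.

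HAPLN1, the link protein gene on chromosome 6 from 49464635 to 49555845, had 1.73 and 1.10 TPM at st.19 and 1.75 and 2.03 TPM at st.21. These values rest on 14, 12, 7 and 8 reads. Both st.21 values were above both st.19 values by a small margin, and the log2 fold change was 0.45. The interval relative to the median gene ran from −1.30 to 1.66 around 0.25, so a change of either sign was not detectable at this depth.

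Several other cartilage genes were more abundant than ACAN and HAPLN1, but not all: VIT was below both at st.19, at 0.795 and 0.483 TPM. Of 24 further matrix and matrix-synthesis genes, collagens again left out, 20 had values and 19 passed the filter. Among the 19, 6 had a log2 fold change above 1 (31.6%, against 17.3% of all genes) and 1 below −1 (5.26%, against 9.68%). The median was 0.46. Without the rRNA gene in the total the counts were 2 above and 3 below, where 7.03% of all genes were above and 27.5% below. The highest level at st.19 was that of MATN2, a matrilin found in many tissues, with 131 and 91.6 TPM and then 98.5 and 96.5 TPM. CNMD, the vessel-repelling chondromodulin of avascular cartilage, had 97.2 and 70.6 TPM and then 109 and 107 TPM, a log2 fold change of 0.38. VIT (vitrin) had 4 and 3 reads at st.19 and 21 and 20 at st.21, a log2 fold change of 3.10. It passed the filter of 1 TPM only through its st.21 values, so it could enter only as a gene that was higher there. CILP, the cartilage intermediate layer protein, rose by 1.42 on the log2 scale, and PAPSS2, which makes the sulfate donor for proteoglycans, by 1.30. MATN4, another matrilin, was above 1 as well, at 1.10. Without the rRNA gene in the total, CILP was at 0.86, PAPSS2 at 0.74 and MATN4 at 0.53, all under the mark. VIT stayed above it, at 2.53.

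CHST11, which adds the sulfate to chondroitin chains, went the other way. It had 23.2 and 16.6 TPM at st.19, from 75 and 74 reads, and 5.07 and 4.59 TPM at st.21, from 7 and 6 reads. The log2 fold change was −2.02, and −2.17 relative to the median gene between the replicate 1 columns, with an interval from −3.53 to −1.05. CHSY1 and XYLT1, which build the chondroitin chain and its linker, had log2 fold changes of −0.11 and 0.37.

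Fibroblasts and mesenchyme express several of these matrix genes too. Of 8 of their markers, 7 were analysed, with 2 above a log2 fold change of 1 (28.6%, against 17.3% of all genes), 0 below −1 (against 9.68%) and a median of 0.93. PDGFRA, a receptor of mesenchymal cells, was at 0.14, and its counting interval relative to the median gene, −0.14 to 0.27, included 0. Their summed level went from 699 and 482 TPM to 1130 and 1100 TPM. DCN, the small proteoglycan decorin, stood at 425 and 293 TPM and then 703 and 697 TPM. The part of fibroblast RNA in the matrix genes was not tested. The 5 chondrocyte markers among the members summed to 48.4 and 32.9 TPM at st.19 and 40.2 and 38.8 TPM at st.21. None of the 5 was past a log2 fold change of 1 in either direction, and 73.1% of all genes were not either. Without the rRNA gene in the total, ACAN was past −1, at −1.38.

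Of 20 further regulators of cartilage, 17 were analysed, with 3 above 1 (17.6%, against 17.3% of all genes), 0 below −1 (against 9.68%) and a median of −0.09. Of the 3, BARX2 (3 and 3 reads at st.19, 8 and 9 at st.21) and PTHLH (10 and 11, then 12 and 11) rest on few reads. FOXC2, a forkhead factor of the mesenchyme, stood at 4.93 and 3.41 TPM at st.19 and at 9.83 and 11.2 TPM at st.21, a log2 fold change of 1.35. Its relative FOXC1 was at 0.98 and SOX8 at 0.91, both under the mark. RUNX1, a factor of early cartilage and of blood and sensory neurons, was at −0.98, and it passed −1 under median centring, at −1.01. Without the first st.19 column 7 of these regulators were above 1, as were 25.2% of all genes. Without the second 2 were below −1, as were 15.8% of all genes. Leaving the rRNA gene out of the total gave 1 above and 4 below, against 7.03% and 27.5% of all genes. FOXC1, FOXC2 and RUNX1 overlap other genes in the annotation.

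RUNX2, without which no osteoblasts form in the mouse, is on chromosome 3 from 189085160 to 189195659. It had 2.48 and 1.73 TPM at st.19 and 2.79 and 2.35 TPM at st.21, from 27, 26, 15 and 12 reads. The second st.21 value lay between the st.19 values, so the stages overlapped. Its log2 fold change was 0.31, and the interval relative to the median gene ran from −0.61 to 1.37 around 0.41. Within the RUNX family, RUNX2 took 5.04% of the reads in the first st.19 column (3.35% to 7.24%) and 10.1% in the first st.21 column (5.78% to 16.2%). RUNX1 took 65.7% (61.5% to 69.7%) and then 49.3% (41.0% to 57.7%), so its share was lower at st.21 by more than counting error. RUNX3 took 29.3% (25.5% to 33.3%) and then 40.5% (32.6% to 48.9%).

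IBSP, bone sialoprotein, a matrix protein that binds mineral, showed the largest difference of the members. It lies on chromosome 5 from 23244351 to 23258172. No read fell on it at st.19 (0 and 0), against 15 and 15 at st.21, which the table lists as 1.17 and 0.81 TPM and as 13.7 and 14.2 TPM with the prior count included. The st.19 columns were the deeper ones. Set against 3 reads per st.19 column, with its st.21 reads taken as exact, IBSP was 10.4-fold higher at st.21 between the replicate 1 columns. Between the replicate 2 columns it was 14.8-fold higher. These folds are not lower limits, because counting error in the st.21 reads is left out. Relative to the median gene, the lower counting limits of its log2 change were 3.10 and 3.08. With the rRNA gene out of the total, the folds against 3 reads were 8.42 and 8.29. The log2 fold change of 3.84, from the deposited values, depends on the prior count. It lay at percentile 99.7 of all genes analysed.

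ALPL, tissue-nonspecific alkaline phosphatase, splits the pyrophosphate that blocks mineral growth and is also made by other cell types. On chromosome 19 from 21913789 to 21999246, it was the most abundant member per length at both stages. It had 24.2 and 17.3 TPM at st.19 and 30.4 and 30.8 TPM at st.21, from 215 reads in the first st.19 column and 131 in the first st.21 column. Both st.21 values were above both st.19 values. The log2 fold change was 0.58. Relative to the median gene the change was 0.54 between the replicate 1 columns (interval 0.21 to 0.86) and 0.50 between the replicate 2 columns (0.18 to 0.83). Without the rRNA gene in the total its log2 fold change was 0.01.

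ALPL and IBSP were the 2 of 8 members that lay above the median gene by more than counting error in both pairs of columns, a share close to the 26.1% of all genes that did. IBSP passed the filter only through its values at the later stage, so its direction in this count was fixed. ALPL was the only other member in the count. Below the median gene in this way were 0 of the 8, against 22.5% of all genes. For the other 6 the interval included 0 in both pairs. The intervals come from the reads of single columns and say nothing of the spread among embryos.

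Ordered by level per length in the first st.19 column with the prior count taken off, ALPL came first at 23.9 TPM (exact Poisson interval 20.8 to 27.3), followed by SOX6 at 18.8 TPM (17.0 to 20.7). SOX9 at 12.6 TPM (10.5 to 14.9) and SOX5 at 11.9 TPM (10.3 to 13.7) did not differ beyond counting error. ACAN at 2.65 TPM, RUNX2 at 2.24 TPM and HAPLN1 at 1.44 TPM had overlapping intervals, and IBSP had no read, with an exact Poisson upper limit of 1.51 TPM (the floor of 3 reads used for its fold stands at 1.22 TPM). In the first st.21 column ALPL stood at 30.1 TPM (25.2 to 35.7), apart from the rest. SOX6 at 14.6 TPM (12.4 to 17.1), SOX9 at 13.2 TPM (10.2 to 16.8) and IBSP at 12.7 TPM (7.10 to 20.9) overlapped, as SOX5 at 8.88 TPM (6.90 to 11.3) did with SOX9 and IBSP. RUNX2, HAPLN1 and ACAN followed at 2.58, 1.49 and 1.10 TPM, also with overlapping intervals.

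Among all genes, ALPL was at percentile 55.3 of the levels at st.19 and 66.6 at st.21, and SOX6 at 46.1 and 44.2. ACAN was at percentile 9.75 and then 3.62, HAPLN1 at 4.42 and 6.44, and RUNX2 at 8.5 and 9.8. IBSP went from percentile 2.3, where its value is the prior count alone, to 42.7. ACAN, HAPLN1 and RUNX2 were thus below percentile 10 at both stages.

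Of 18 further genes of bone matrix and mineralisation, 15 were analysed, with a median of 0.22. Of these, 2 were above 1 (13.3%, against 17.3% of all genes) and 1 below −1 (6.67%, against 9.68%), shares close to those of all genes. SPARC (osteonectin), a collagen-binding protein of bone and of many connective tissues, had 732 and 578 TPM and then 2440 and 2560 TPM, with a log2 fold change of 1.94. MGP, an inhibitor of calcification, rose by 1.28, from 20.9 and 15.1 TPM to 39.5 and 46.8 TPM. SMPD3, a sphingomyelinase needed for bone mineral in the mouse, fell by 1.13, from 53.8 and 37.2 TPM to 20.6 and 20.3 TPM. ANKH, which moves pyrophosphate out of cells, was at −0.89. SPP1 (osteopontin) had 4 reads in every column, but the columns of the later stage were shallower, and its log2 fold change was 0.92. Its interval relative to the median gene ran from −1.17 to 3.68 between the replicate 1 columns. It included 0 and did not exclude a large rise. BGLAP (osteocalcin) had 7, 8, 3 and 2 reads and a log2 fold change of −0.18. Whether either gene shared the pattern of IBSP could not be told from so few reads. Below −1 there were 0 of these genes without the first st.19 column and 3 without the second, against 6.09% and 15.8% of all genes. Without the rRNA gene 3 were below −1 and 1 above 1, against 27.5% and 7.03% of all genes. SPARC overlaps LOC117881477 in the annotation.

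Of 13 further regulators of osteoblasts, 9 were analysed, with 3 above 1 (33.3%, against 17.3% of all genes), 0 below −1 (against 9.68%) and a median of 0.60. SNAI2 (Slug), a repressor active in migrating mesenchyme and neural crest, had 24 and 23 reads at st.19 and 44 and 51 at st.21, a log2 fold change of 2.19. ATF4, a stress-responsive factor that bone cells need to make matrix, was just past the mark at 1.01, going from 492 and 332 TPM to 808 and 815 TPM. TWIST1, which restrains RUNX2, was at 0.60, from 28.4 and 16.5 TPM to 38.3 and 28.2 TPM. Without the second st.19 column, or without the rRNA gene in the total, 1 of the 9 was above 1 and 1 below −1. The shares of all genes were 11.5% above and 15.8% below without that column, and 7.03% and 27.5% without the rRNA gene.

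**Figure D3:**
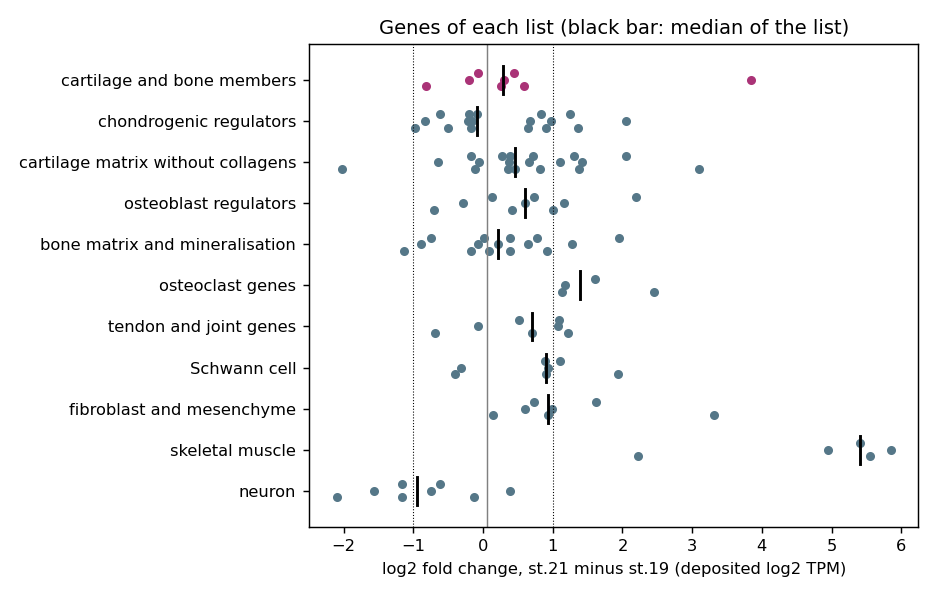
Log2 fold change, st.21 minus st.19, of every analysed gene in each list (points), with the median of the list as a black bar, the median of all genes (0.06) as a grey line and −1 and 1 as dotted lines. All members but IBSP lie within the dotted lines, while the skeletal muscle markers lie between 2.22 and 5.85 and 7 of the 8 neuron markers are below 0.

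The scaling decided how the smaller changes read. Of all genes past a log2 fold change of 1 in either direction, 64.1% were higher at st.21 on the deposited scale. That share was 52.8% after quantile normalization, 22.5% when only protein-coding genes made up the TPM total, 20.4% without the rRNA gene, 80.5% without the first st.19 column and 42.0% without the second. SOX9, HAPLN1 and RUNX2 turned from positive to negative with the protein-coding total and without the rRNA gene, at −0.31, −0.12 and −0.26 without the rRNA gene. SOX5 and SOX6 turned from negative to positive without the first st.19 column, at 0.07 and 0.22. Relative to the median gene of the same setting, no member changed sign under any scaling or filter. For settings that shift all genes of a column alike, such as median centring, this follows from arithmetic and is no check. SOX9 ran from 0.13 to 0.30, HAPLN1 from 0.21 to 0.50 and RUNX2 from 0.12 to 0.37. SOX5 ran from −0.31 to −0.16 and SOX6 from −0.16 to −0.02. All settings use the same reads, and the counting intervals of these genes included 0.

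**Figure D4:**
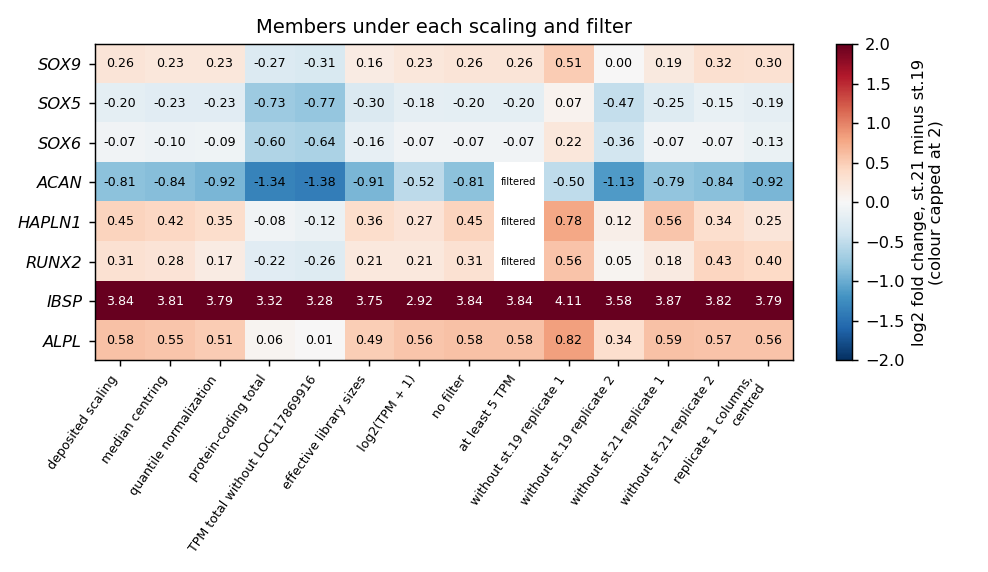
Log2 fold change, st.21 minus st.19, of each member (rows) under the deposited scaling and each alternative (columns), with the value printed and coloured red for higher and blue for lower at st.21. IBSP lies between 2.92 and 4.11 throughout, and ACAN passes −1 with the protein-coding total (−1.34), without the rRNA gene (−1.38) and without the second st.19 column (−1.13).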

How the data were processed

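The authors aligned single-end files with HISAT2 to CAS_Tse_1.0, counted reads per gene with featureCounts, kept genes with at least 1 CPM in 2 columns with edgeR 3.42.4, and deposited log2 TPM values, with a prior count added before the logarithm. The sum of TPM is 1000000 in each column. Stage and replicate came from the sample titles, and 0 columns were left unused. The reads were recovered by finding, for each gene, the length up to 150000 nt at which all 4 values are whole reads to within 1e-05 of a read. This gave whole reads for 100% of genes, and 3626 of 3626 listed lengths were recovered. Tests on simulated data preceded the analysis.

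Coordinates and overlaps come from the RefSeq table of CAS_Tse_1.0, in which 15266 of the symbols were found. Log2 fold changes are means of the st.21 columns minus means of the st.19 columns, with a mark of 1 in either direction and no test, because each stage is 1 sample. Intervals (95%) are exact binomial for changes and shares and exact Poisson for levels. They cover counting error only. A member with 3 reads or fewer in each st.19 column, which was IBSP alone, was also set against a floor of 3 reads. Genes of the lists with as few reads, such as BARX2, kept the change of the deposited values.

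All members were named, with up to 4 genes of each list that had the largest change and at least 20 reads in a column. MATN2, CNMD, MATN4, CHSY1, XYLT1, RUNX3, SPP1, BGLAP, TNMD, CALCR, BARX2 and PTHLH were named after their values were seen. The values of 1 gene that this rule picks are not reported here. The members and lists were chosen with earlier results of these data known. Alternatives were other scalings, totals, filters, a pseudocount of 1 TPM, a 1.5-fold mark and leaving out each column. The analysis ran in Python 3.11.15 (matplotlib 3.10.9, numpy 2.4.6, scipy 1.17.1, pandas 2.3.3).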

Additional observations from a re-analysis of the deposited data

How the results depend on the processing

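No paired analysis was possible because each stage is 1 sample and the results come from no test. IBSP was the 1 member above 1 under every setting. Every setting uses the same reads, with 0 in each st.19 column, so this is no separate support for its change. The count of members below −1 went from 0 to 1 (ACAN) with the protein-coding total and without the rRNA gene, and ranged from 0 to 1 when columns were left out. At the 1.5-fold mark 1 member (ACAN) was past it on the lower side. The members' median turned to −0.24 with the protein-coding total and −0.29 without the rRNA gene, and ranged from 0.03 to 0.54 without single columns. The median of all genes moved as well, to −0.47 and −0.52, and ranged from −0.21 to 0.33 without single columns. With the protein-coding total, and also without the rRNA gene, the genes above and below the mark were 1 and 4 among cartilage regulators and 2 and 3 among cartilage matrix. They were 1 and 1 among osteoblast regulators, 1 and 3 in bone matrix, 2 above among osteoclast genes, and 0 and 1 among tendon genes. Of all genes, 7.27% were above and 25% below with the protein-coding total, and 7.03% and 27.5% without the rRNA gene. At the 1.5-fold mark the counts were 8 and 3 among cartilage regulators, 5 and 1 among osteoblast regulators and 5 and 3 in bone matrix. There were 2 below in cartilage matrix and 1 below in tendon. That mark was passed by 29.5% of all genes above and 20.6% below. Cartilage regulators had 1 below with median centring, quantile normalization and effective library sizes. Bone matrix had 1 above with quantile normalization, tendon 1 above with effective library sizes and with log2(TPM + 1), cartilage matrix 2 below with no filter, and osteoblast regulators 1 above in the centred replicate 1 columns, a setting chosen after seeing the data. Leaving out single columns gave 3 to 7 above and 0 to 2 below for cartilage regulators, and 1 to 4 above and 0 to 1 below for osteoblast regulators. It gave 0 to 3 below for bone matrix, 2 to 4 above for osteoclast and 0 to 3 above for tendon genes. The shares of all genes then ranged from 11.5% to 25.2% above and from 6.09% to 15.8% below. With at least 5 TPM, ACAN, HAPLN1 and RUNX2 dropped out. Depth limits ACAN, HAPLN1 and RUNX2, with 7 to 35 reads a column.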

Other observations

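Genes of bone-resorbing cells and of tendon and joint were also followed. Of 12 osteoclast genes, 4 were analysed and all 4 had a log2 fold change above 1, where 17.3% of all genes did, with a median of 1.39. CALCR, the gene of the 4 with the fewest reads, had 6 and 5 at st.19 and 8 and 10 at st.21. Its interval relative to the median gene included 0 between the replicate 1 columns (−0.05 to 3.47) but not between the replicate 2 columns (0.55 to 4.13). With at least 5 TPM required, 3 were above 1. MMP9, a protease of osteoclasts and of other myeloid cells, had 14 and 13 reads at st.19 and 38 and 32 reads at st.21, a log2 fold change of 2.46. NFATC1, a factor of osteoclast formation that muscle and endothelium also use, rose by 1.18, and the integrin gene ITGB3 by 1.13. Without the rRNA gene in the TPM total, or without the second st.19 column, 2 of the 4 were above 1. In these settings 7.03% and 11.5% of all genes were above 1. The 8 osteoclast genes without values here, among them CTSK and ACP5, were not analysed, so the list is represented by genes that other cells share.

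Of 8 tendon and joint genes, 7 were analysed, with 3 above 1 (42.9%, against 17.3% of all genes), 0 below −1 (against 9.68%) and a median of 0.70. THBS4, a matrix protein of tendon and muscle attachment, had 15.4 and 9.73 TPM and then 28.2 and 28.6 TPM, a log2 fold change of 1.22. The small proteoglycan gene KERA was at 1.08 and ERG, a factor of joint cartilage and of endothelium, at 1.07. WNT9A, made at forming joints, was at 0.70. TNMD, the tendon marker tenomodulin, had 5, 4, 3 and 3 reads. Without the second st.19 column, or without the rRNA gene in the total, 0 of the 7 were above 1, against 11.5% and 7.03% of all genes.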
